A study of Rattus norvegicus with 13 samples.

Results

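The core circadian clock of the rat hypothalamus was followed in 10 genes, chosen by name from a table of 17366 rows. They were Arntl, Clock and Npas2 of the positive limb, Per1, Per2, Per3, Nr1d1 and Bhlhe40 of the negative limb, and the output factors Dbp and Nfil3. All 10 were matched by symbol to 1 row each, and all 10 passed the filter on low values, a mean of at least 0.5 FPKM (fragments per kilobase and library size, a level that allows for transcript length). RNA came from the whole hypothalamus of 13 rats, 6 on a diet with 55% fructose and 7 on standard chow with 0.30% fructose. The rats lived in pairs and ate their diet from postnatal day 25 until a fast on day 79. On day 80, 1 h before death, each was injected intraperitoneally with saline or with glucose at 2 g per kg. The whole cohort had 31 rats on glucose and 29 on saline. The sources used here do not give the injection, sex, strain, cage or clock time of death of each sequenced rat.

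The mammalian clock is a feedback loop of transcription. BMAL1, the protein of Arntl, pairs with CLOCK or NPAS2 and switches on the Per, Cry, Nr1d1 and Dbp genes through E-box sequences. The PER and CRY proteins then block that pair, and REV-ERB alpha, the protein of Nr1d1, represses Arntl. The suprachiasmatic nucleus of the hypothalamus holds the master clock, while most other brain regions run local clocks in other phases. A sample of whole hypothalamus adds these together, so that fewer cells of a type and less RNA per cell cannot be told apart.

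Sites of this loop were looked for in the RefSeq promoters of the 10 genes (build GRCr8, 250 bases before to 50 after the start), and 6 windows of 30 bases are shown because they are the loop's own sequences in these genes. RefSeq lists Arntl as Bmal1. Capitals mark the match, and each window is read along the strand of the gene.
Arntl, chr1:176766300-176766329 (+ strand), element of REV-ERB and ROR proteins: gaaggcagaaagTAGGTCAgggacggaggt
Per2, chr9:99497038-99497067 (- strand), E-prime box: aacgcgcgcggtCACGTTttccactatgtg
Per2, chr9:99497167-99497196 (- strand), D-box: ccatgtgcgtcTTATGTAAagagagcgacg
Nr1d1, first listed start, chr10:84231969-84231998 (- strand), E-prime box on the opposite strand: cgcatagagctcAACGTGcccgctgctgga
Nr1d1, second listed start, chr10:84229628-84229657 (- strand), E-box: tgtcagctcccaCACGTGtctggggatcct
Bhlhe40, chr4:143174218-143174247 (+ strand), E-box: agcgttgtccaaCACGTGagactcatgtga
Both strands were searched for 4 motifs, of which the E-box is its own reverse complement, and no match shown overlaps another. The E-box CACGTG was found for 2 of the 10 genes and in 6.42% of all 33469 listed promoters, and the E-prime box CACGTT for 2 of 10 and in 4.83%. The D-box TTANGTAA, which DBP and NFIL3 both bind, was found for 1 gene, against 2.24% of promoters, and TAGGTCA, the core of the REV-ERB and ROR element, for 1 gene, against 2.63%. The other 6 genes held none of these letters in these windows. A match is a description of sequence alone.

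By level, which FPKM allows to be compared between genes because it is per length, Dbp stood highest with a mean of 116.2 FPKM over the 13 rats and Clock lowest with 3.56 FPKM. Between them came, in falling order, Nr1d1 (47.6 FPKM), Bhlhe40 (28.6), Per1 (26.6), Per3 (20.1), Per2 (16.0), Arntl (11.98), Npas2 (11.7) and Nfil3 (8.86). Differences between neighbours were not tested. The ranges of Bhlhe40 and Per1, and of Arntl and Npas2, overlapped in both diets. Those of Npas2 and Nfil3 overlapped in the fructose rats, and in the chow rats through the low Npas2 of chow replicate 1 alone. Per1 and Per3 overlapped in the fructose rats alone, and Per2 and Arntl in the chow rats alone. Per3 and Per2 did not overlap in the fructose rats but did in the chow rats. Per2 varied least between rats of 1 diet (coefficient of variation 4.63% on fructose and 3.60% on chow) and Npas2 most (21.7% on fructose and 27.9% on chow).

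The libraries differed between diets in genes of tissue next to the hypothalamus, and of blood and meninges. Of 15 matched thalamus markers all were above 0; 10 fell and 1 rose on fructose (limma on log2(FPKM + 0.5), Benjamini-Hochberg adjusted p under 0.05 over all 11837 genes tested). Their sum was 591.7 to 1022 FPKM in fructose rats and 695.1 to 1487 FPKM in chow rats, and their level, the mean of log2(FPKM + 0.5), 4.23 ± 0.69 (SD, n = 6) on fructose and 5.23 ± 0.42 (SD, n = 7) on chow. All 8 tested markers of midbrain dopamine neurons, 5 of 6 of blood, 6 of 7 of meninges and fibroblasts and 2 of 5 of astrocytes rose. For oligodendrocytes, microglia and neurons 0 of 5 each passed, and for choroid plexus and pituitary 0 of 3 each. Over all genes tested 2.27% fell and 1.66% rose. The level of the neuron markers was still lower on fructose, at 7.994 ± 0.094 (SD, n = 6) against 8.173 ± 0.115 (SD, n = 7) on chow. That difference in level was not tested. Col1a2 and Ogn of the meninges, Otx2 of the choroid plexus and the pituitary genes Prl and Pou1f1 were listed at 0 in all rats. The sums were 174.7 to 530.7 FPKM on fructose and 66.5 to 91.3 FPKM on chow for dopamine neurons, 515.6 to 2317 FPKM on fructose and 245.7 to 655.8 FPKM on chow for blood, and 601.0 to 943.7 FPKM on fructose and 376.5 to 692.4 FPKM on chow for meninges. Of 15 hypothalamus markers all were above 0 and 0 passed, but Avp, the vasopressin gene, ran from 0.451 to 214.1 FPKM in fructose rats and from 5.08 to 601.2 FPKM in chow rats.

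Markers of the suprachiasmatic nucleus, the seat of the master clock, were 12 of 13 above 0, with Prok2 listed at 0 in all rats; Nms was not matched. Their sum was 88.8 to 270.6 FPKM in fructose rats and 126.3 to 773.2 FPKM in chow rats. Avp, which is also in the hypothalamus list, reached 214.1 FPKM in fructose rats and 601.2 FPKM in chow rats. Rgs16 reached 56.96 FPKM in fructose rats and 116.5 FPKM in chow rats. These genes weigh heavily in the sum, which is therefore not a measure of this nucleus alone. Vip, the gene of a peptide of its core neurons, stood at 8.02 ± 5.38 FPKM on fructose (SD, n = 6) and 32.8 ± 25.5 FPKM on chow (SD, n = 7), without passing (log2 fold change -1.68 ± 0.66, limma adjusted p = 0.172). Vip was highest in chow replicates 7 and 2 (78.1 and 49.6 FPKM), the rats with the highest thalamus levels (5.62 and 5.76). In chow replicate 1, with the lowest thalamus level of its diet (4.46), Vip was 1.89 FPKM and Avp 512.1 FPKM. Chow replicate 4, with a thalamus level of 5.29, had high values of both, Vip at 40.8 FPKM and Avp at 601.2 FPKM. The relation of Vip to that level was not tested, so Vip is not read here as a measure of this nucleus alone. The VIP receptor Vipr2 (-1.06 ± 0.27, limma adjusted p = 0.0409) and the signalling regulator Rgs16 (-1.51 ± 0.39, limma adjusted p = 0.0449) were the 2 of 11 tested that fell, against 2.27% of all genes. Both genes are known from the thalamus too. The log2 fold change was above 0 in 7 of the 11, from 0.01 for Grp to 0.32 for Prokr2, with none of the 7 called. With 1 rat left out, Vipr2 kept its call in 3 of 13 fits (fructose replicate 3 or 5, or chow replicate 1) and Rgs16 in 4 (these or fructose replicate 1). The part in the diet difference of the clock genes was not tested for dopamine neurons, blood, meninges, astrocytes or neurons. Nor was it for the suprachiasmatic nucleus and the hypothalamus list. For the thalamus the values are given with those genes.

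Of the 10 clock genes, 5 passed the test between diets. Npas2, Arntl, Nfil3 and Bhlhe40 fell on fructose, and Per3 rose (limma, as above). Over all genes tested 3.94% passed, 2.27% lower and 1.66% higher on fructose. The median log2 fold change of the 10 was -0.22, against 0.00 for all genes tested, and it was below 0 in 8 of the 10, against 49.7% of all genes. At an unadjusted p under 0.05 stood 7 of the 10 by limma, against 19.2% of all genes, and 7 by the exact permutation test, against 18.8%. No member passed the exact permutation test after adjustment, and neither did any other gene. With the level of the 15 thalamus markers as a covariate, a fit chosen after the data were seen, 0 of the 10 passed by limma. In that fit 0.228% of all genes passed, so the 0 is not particular to the clock genes.

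**Figure D1:**
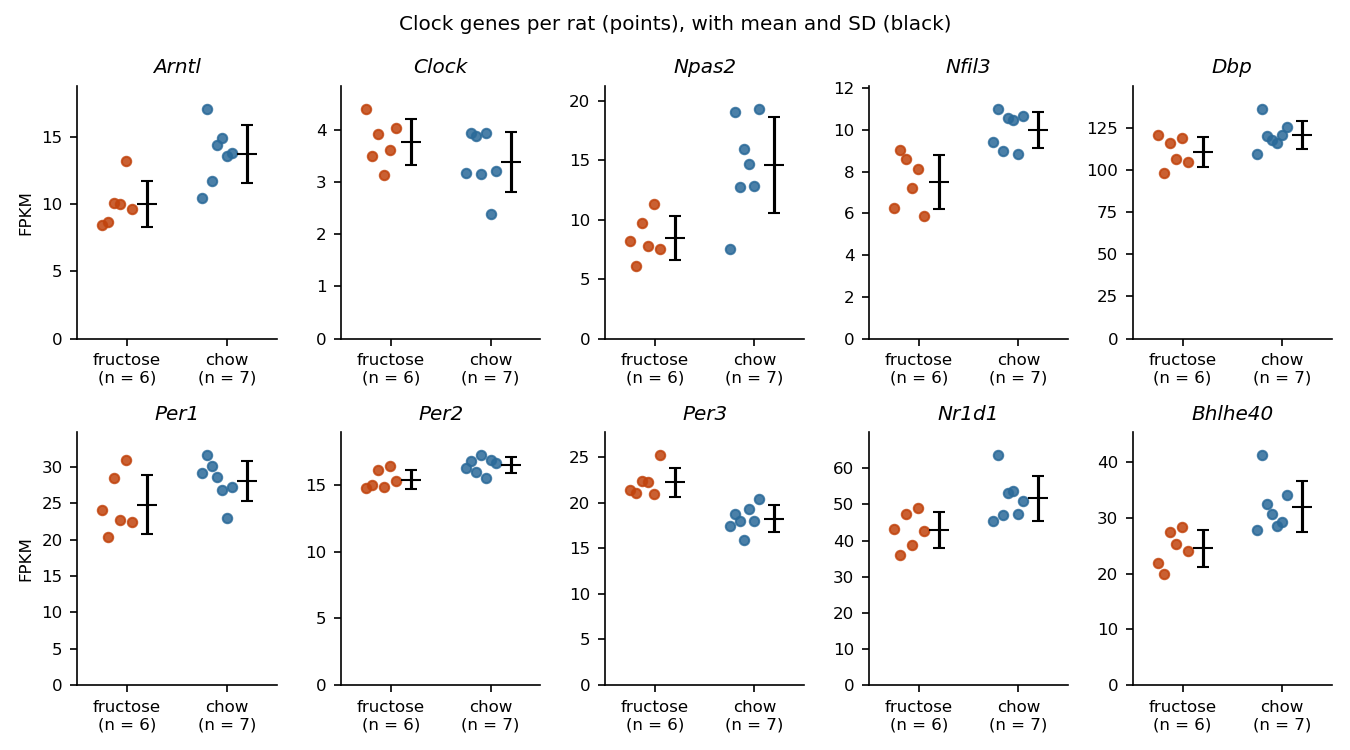
FPKM of the 10 clock genes (vertical axes, each from 0) in each fructose rat and each chow rat; points are rats and the black bars give the mean and SD of each diet. Per3 is the gene whose fructose rats, at 20.97 to 25.2 FPKM, all lie above the chow rats, at 15.9 to 20.5 FPKM.

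The positive limb was lower on fructose in 2 of its 3 genes. Npas2 encodes a paralogue of CLOCK that is abundant in the forebrain and can take its place beside BMAL1. It ranged from 6.07 FPKM (median 7.99) to 11.3 FPKM in the fructose rats, against 7.56 FPKM (median 14.7) to 19.3 FPKM in the chow rats. Except for chow replicate 1, at 7.56 FPKM, every chow rat lay above every fructose rat. Npas2 averaged 8.44 ± 1.84 FPKM on fructose (SD, n = 6) and 14.6 ± 4.07 FPKM on chow (SD, n = 7), and differed by -0.73 ± 0.19 on the log2 scale (SE, limma adjusted p = 0.0445, exact permutation p = 0.00816).

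Arntl encodes BMAL1, the obligate partner in the activating pair. It ranged from 8.46 FPKM (median 9.81) to 13.2 FPKM on fructose, against 10.4 FPKM (median 13.8) to 17.1 FPKM on chow. Of the fructose rats 5 lay below the whole chow group, and fructose replicate 5 (13.2 FPKM) lay inside it. Its log2 fold change was -0.43 ± 0.11 (SE, limma adjusted p = 0.0470, exact permutation p = 0.00699). Clock, whose protein is the other classical partner of BMAL1, stood at 3.77 ± 0.442 FPKM on fructose (SD, n = 6) and 3.39 ± 0.575 FPKM on chow (SD, n = 7). Its log2 fold change of 0.14 ± 0.11 (SE) did not pass (limma adjusted p = 0.538), and the diets overlapped.

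Among the Per genes, the repressor genes of the loop, Per3 was the 1 of 3 that passed. Per3 ranged from 20.97 FPKM (median 21.9) to 25.2 FPKM in the fructose rats, against 15.9 FPKM (median 18.0) to 20.5 FPKM in the chow rats. No fructose rat was as low as the highest chow rat, which was so for 1 of the 10 clock genes, while in 1.61% of all genes tested the diets did not overlap in either direction. The log2 fold change was 0.28 ± 0.06 (SE, limma adjusted p = 0.0308, exact permutation p = 0.00117). PER3 is regarded as the least needed of the PER proteins for the core loop.

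Per1 responds fast to stimuli such as light and glucocorticoids in addition to its daily cycle. It averaged 24.8 ± 4.04 FPKM on fructose (SD, n = 6) and 28.1 ± 2.78 FPKM on chow (SD, n = 7), a difference of -0.18 ± 0.10 on the log2 scale (SE) that did not pass (limma adjusted p = 0.321). The fructose rats spread more widely, from 20.3 to 30.9 FPKM, against 22.9 to 31.6 FPKM in the chow rats. Per2, a repressor on which the length of the daily cycle depends, ranged from 14.8 FPKM (median 15.2) to 16.5 FPKM on fructose, against 15.5 FPKM (median 16.6) to 17.2 FPKM on chow. Of the fructose rats 4 lay below the whole chow group, but the difference was small, at -0.09 ± 0.05 on the log2 scale (SE, limma adjusted p = 0.314, exact permutation p = 0.0169).

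The other arm of the negative limb consists of REV-ERB alpha, which represses Arntl, and DEC1, the protein of Bhlhe40, which competes for E-boxes. Bhlhe40 ranged from 19.9 FPKM (median 24.7) to 28.4 FPKM on fructose, against 27.8 FPKM (median 30.7) to 41.2 FPKM on chow. The diets overlapped in 2 rats, fructose replicate 5 at 28.4 FPKM and chow replicate 1 at 27.8 FPKM. The log2 fold change was -0.38 ± 0.10 (SE, limma adjusted p = 0.0455, exact permutation p = 0.00233).

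Nr1d1 ranged from 36.1 FPKM (median 42.9) to 49.1 FPKM on fructose, against 45.5 FPKM (median 50.9) to 63.6 FPKM on chow. Every fructose rat lay below the chow mean of 51.7 FPKM and 4 of 6 lay below all chow rats, yet the difference missed the threshold, at -0.27 ± 0.08 on the log2 scale (SE, limma adjusted p = 0.0895, exact permutation p = 0.0105). Nr1d1 overlaps the 3' end of Thra, a thyroid hormone receptor gene, on the opposite strand. The sources used here do not say whether strand was used in counting, so reads of the overlap cannot be assigned with certainty. Thra stood at 225.9 ± 11.9 FPKM on fructose (SD, n = 6) and 212.3 ± 19.7 FPKM on chow (SD, n = 7), with a difference of 0.09 ± 0.06 on the log2 scale (SE, limma adjusted p = 0.459).

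The output factors DBP and NFIL3 bind the same D-box sequence, DBP as an activator and NFIL3 as a repressor. Nfil3 ranged from 5.88 FPKM (median 7.68) to 9.06 FPKM on fructose, against 8.85 FPKM (median 10.47) to 11.01 FPKM on chow. Of the fructose rats 5 lay below the whole chow group, and the log2 fold change was -0.40 ± 0.10 (SE, limma adjusted p = 0.0394, exact permutation p = 0.00175). Dbp, among the most strongly cycling transcripts in many tissues, averaged 110.8 ± 8.85 FPKM on fructose (SD, n = 6) and 120.9 ± 8.39 FPKM on chow (SD, n = 7). Its difference of -0.13 ± 0.06 on the log2 scale (SE) did not pass (limma adjusted p = 0.257, exact permutation p = 0.0548).

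The 5 calls lay close to the threshold, and each was lost in 5 or more of the 13 fits that left out 1 rat. Per3 kept its call in 8 of these. It was lost on leaving out fructose replicate 2 (limma adjusted p = 0.0501), 4 (0.0703) or 6 (0.0753), or chow replicate 2 (0.0612) or 4 (0.0607). Nfil3 kept its call in 6 fits, those that left out fructose replicate 2, 3 or 5, or chow replicate 1, 3 or 6. Bhlhe40 kept it in 4, those that left out fructose replicate 3 or 5, or chow replicate 1 or 6. Arntl and Npas2 kept it in 2, those that left out fructose replicate 5 or chow replicate 1. The highest limma adjusted p in these fits was 0.109 for Arntl, 0.104 for Npas2, 0.104 for Bhlhe40, 0.0930 for Nfil3 and 0.0753 for Per3. The direction held in all 13: the log2 fold change lay between -0.87 and -0.64 for Npas2, -0.51 and -0.38 for Arntl, -0.45 and -0.34 for Nfil3, -0.42 and -0.32 for Bhlhe40, and 0.24 and 0.31 for Per3.

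The limbs were then set side by side in each rat, as the mean of log2(FPKM + 0.5) over the 3 positive genes and over the 7 negative and output genes; these are descriptions with no test. The positive limb stood at 2.87 ± 0.17 on fructose (SD, n = 6) and 3.21 ± 0.24 on chow (SD, n = 7). The negative and output limbs stood at 4.71 ± 0.11 on fructose and 4.88 ± 0.09 on chow. Both limbs were thus lower on fructose, the positive one by 0.34 and the others by 0.17 on the log2 scale. The positive limb minus the others was -1.85 ± 0.08 on fructose and -1.67 ± 0.17 on chow, a difference of -0.17. Without Nfil3 and Bhlhe40 this difference was -0.26. The fructose rats, at -1.96 to -1.73, lay within the range of the chow rats, at -2.02 to -1.52, and the lowest value of all was that of chow replicate 1. The 2 output genes alone stood at 4.89 ± 0.12 on fructose and 5.15 ± 0.10 on chow, and here all fructose rats (4.70 to 5.02) lay under the chow rats (5.045 to 5.31). Neither gene did so by itself, with 3 of 6 fructose rats below all chow rats in Dbp and 5 of 6 in Nfil3. The share of other gene pairs whose mean separates the diets was not computed. The separation is therefore not shown to be a trait of the output genes.

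Single pairs of genes, on the same log2 scale, were picked after their values were seen and are given with no test. Arntl minus Per3 stood at -1.13 ± 0.25 on fructose (SD, n = 6) and -0.41 ± 0.23 on chow (SD, n = 7), with 5 of 6 fructose rats below the chow range. Npas2 minus Clock stood at 1.05 ± 0.31 on fructose and 1.92 ± 0.44 on chow, with 3 of 6 below the chow range. Dbp minus Nfil3 stood at 3.81 ± 0.28 on fructose and 3.53 ± 0.12 on chow, with 4 of 6 above the chow range and 1, fructose replicate 2, below it.

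**Figure D2:**
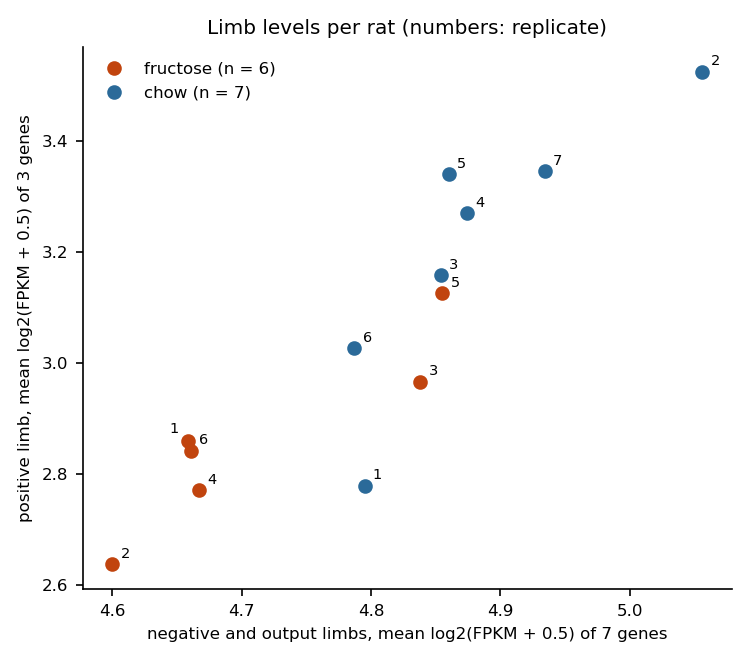
Mean log2(FPKM + 0.5) of the 3 positive genes (vertical axis) against that of the 7 negative and output genes (horizontal axis); each point is a rat, numbered by replicate within its diet. Rats with a high positive limb also had high negative and output limbs, with chow replicate 2 highest in both (3.52 and 5.06) and fructose replicate 2 lowest in both (2.64 and 4.60).

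Of the wider clock, 35 genes in 6 lists by role that include the 10, 30 were matched and tested. Of these 4 fell, 2 rose and 24 did not pass (limma, against 3.94% of all genes), with a median log2 fold change of -0.12. Outside the 10 core genes 1 of 20 passed. This was Id2, an inhibitor of basic helix-loop-helix factors that also dampens the clock, at 44.2 ± 4.61 FPKM on fructose (SD, n = 6) and 33.8 ± 3.63 FPKM on chow (SD, n = 7). Its log2 fold change was 0.38 ± 0.08 (SE, limma adjusted p = 0.0263), and 5 of 6 fructose rats lay above all chow rats. The call held in 8 of 13 fits with 1 rat left out and was lost on leaving out fructose replicate 2, 4 or 6, or chow replicate 2 or 4.

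The second repressor family, the cryptochromes, gave no call. Cry2 stood at 31.9 ± 5.01 FPKM on fructose (SD, n = 6) and 39.7 ± 7.16 FPKM on chow (SD, n = 7), with a difference of -0.31 ± 0.12 on the log2 scale (SE, limma adjusted p = 0.167). Cry1 stood at 8.95 ± 0.796 FPKM on fructose and 9.31 ± 0.779 FPKM on chow (-0.06 ± 0.07, limma adjusted p = 0.746). Ciart, a further repressor of the CLOCK and BMAL1 pair that the table lists under an older name, had a difference of -0.33 ± 0.11 on the log2 scale (SE, limma adjusted p = 0.115).

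Nr1d2, which encodes REV-ERB beta, had a difference of -0.15 ± 0.09 on the log2 scale (SE, limma adjusted p = 0.374) and Tef, a relative of Dbp, of -0.07 ± 0.04 (SE, limma adjusted p = 0.436). Rora and Rorb, activators of Arntl through the element that REV-ERB proteins also bind, had -0.27 ± 0.22 and -0.35 ± 0.20 (SE, limma adjusted p = 0.544 and 0.361). Bhlhe41, Hlf, Fbxl21 and Sirt1 were among the genes not matched to a row and are not analysed here. Apart from Id2, none of these neighbours of the core loop passed, although the log2 fold change was below 0 in 16 of the 20 genes outside the core.

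**Figure D3:**
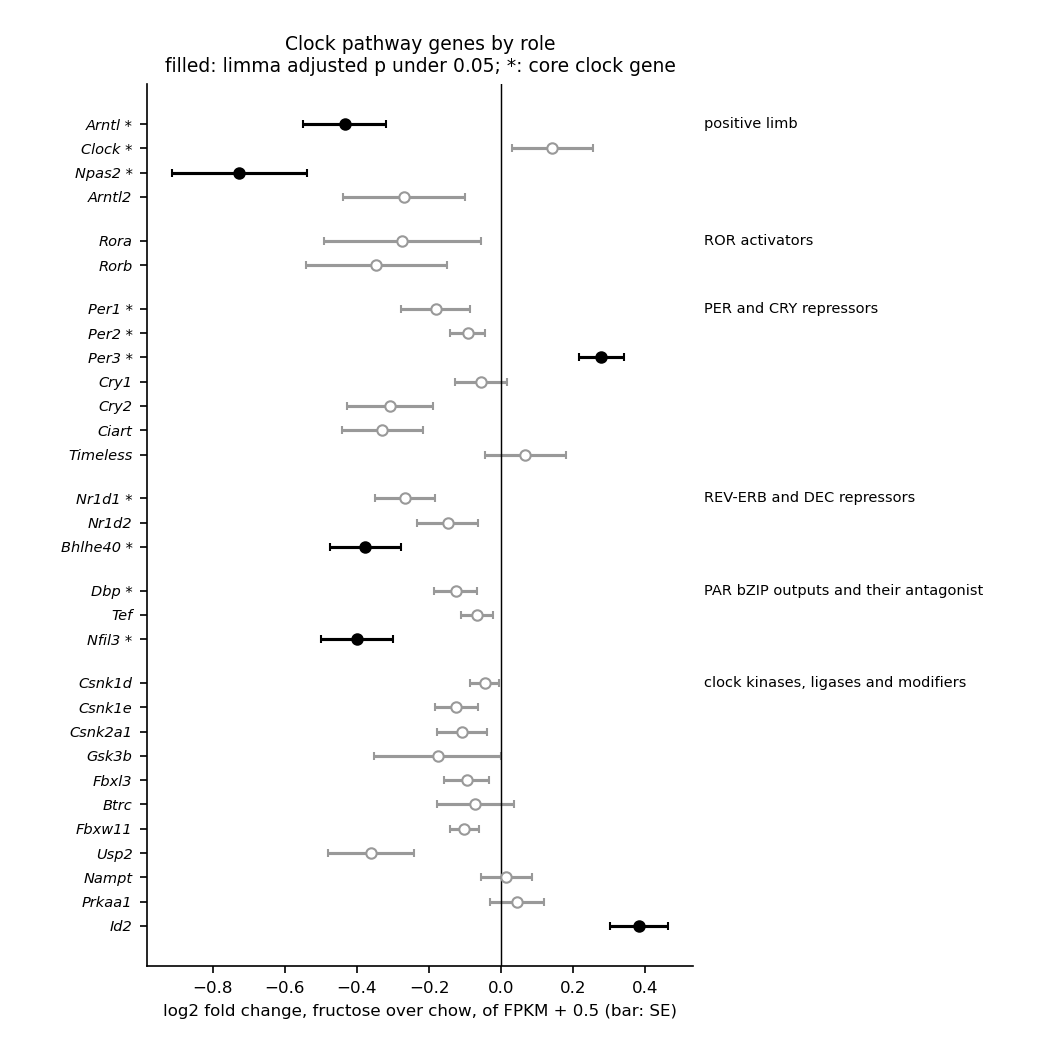
Log2 fold change, fructose over chow, with its SE (horizontal axis, of FPKM + 0.5) for the 30 tested genes of the wider clock, grouped by role (right); filled points passed limma at an adjusted p under 0.05 and stars mark the core genes. Npas2 lies farthest to the left at -0.73 and Id2 farthest to the right at 0.38.

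Per1 and Bhlhe40 are also induced by neuronal activity, and Per1 by glucocorticoids, so genes of both responses were set beside them. Of 11 tested immediate early genes 2 fell, 0 rose and 9 did not pass (limma, where 3.94% of all genes passed). The median log2 fold change of this list was -0.12. It was above 0 for Junb (0.07) and Ier2 (0.27) and close to 0 for Arc (-0.004), none of them called. Fos, a classical activity marker, stood at 14.2 ± 3.54 FPKM on fructose (SD, n = 6) and 23.7 ± 6.24 FPKM on chow (SD, n = 7), a difference of -0.72 ± 0.19 on the log2 scale (SE, limma adjusted p = 0.0490). Dusp1, a phosphatase induced with it, stood at 21.2 ± 6.61 FPKM on fructose and 36.3 ± 9.93 FPKM on chow (-0.78 ± 0.20, limma adjusted p = 0.0436). Of 10 glucocorticoid-induced genes 1 fell, the cell cycle inhibitor Cdkn1a (-0.51 ± 0.13, limma adjusted p = 0.0413), and 9 did not pass, against the same 3.94% of all genes. The median log2 fold change of these 10 was -0.09. It was above 0 in 3 of them, Sult1a1 (0.355), Zbtb16 (0.167) and Fkbp5 (0.103), none of them called. With 1 rat left out, the call of Fos was kept in 2 of 13 fits (fructose replicate 3 or chow replicate 6 left out). That of Dusp1 was kept in 4 (fructose replicate 1 or 5, or chow replicate 1 or 6) and that of Cdkn1a in 3 (fructose replicate 5, or chow replicate 1 or 6).

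Most clock genes were high or low in the same rats. Of the 45 pairs of the 10 genes, 28 were correlated over the 13 rats (Pearson r of log2 values, permutation test with 100000 resamples, adjusted p under 0.05 over the 45), 26 of them with a positive r. The share among pairs of other genes was not computed, and the pooled r includes the difference between diets. Genes outside the clock came as close to Arntl, with r = 0.96 for Hsph1. The 28 pairs are therefore not shown to be a trait of the clock. Arntl and Npas2, both of the positive limb, gave r = 0.92 (permutation p = 4e-05, adjusted p = 0.00045) and rho = 0.88 (permutation p = 0.00023, adjusted p = 0.00207). Without the 2 rats farthest from the Arntl median r was 0.92 (n = 11), and it was 0.81 within fructose rats (n = 6, exact permutation p = 0.0569) and 0.85 within chow rats (n = 7, exact permutation p = 0.0175).

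Arntl and Nr1d1, its repressor, were high in the same rats. Their r was 0.89 (permutation p = 1e-05, the smallest the resamples can give, adjusted p = 0.0003), their rho 0.94 (permutation p = 1e-05, adjusted p = 0.00045), and r was 0.89 without the 2 rats farthest from the Arntl median. Within fructose rats r was 0.67 (n = 6, exact permutation p = 0.140) and within chow rats 0.91 (n = 7, exact permutation p = 0.00218). No pair with Clock was among the 28.

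The 2 negative pairs of the 28 were Per3 with Nfil3 and Per3 with Per2. The diets do not overlap in Per3, so r is given within diets alone. Per3 with Nfil3 gave -0.64 in fructose rats (n = 6, exact permutation p = 0.150) and 0.26 in chow rats (n = 7, exact permutation p = 0.586), and Per3 with Per2 gave -0.12 (n = 6, exact permutation p = 0.856) and -0.41 (n = 7, exact permutation p = 0.358). Of the 28 pairs 25 kept their sign within both diets. Within diets 0 pairs passed the adjustment in fructose rats, with 9 at an unadjusted exact permutation p under 0.05, and 2 passed in chow rats, with 6 at that level. Without the 2 rats farthest from the median of the first gene 11 pairs passed the adjustment, with 11 rats in place of 13.

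**Figure D4:**
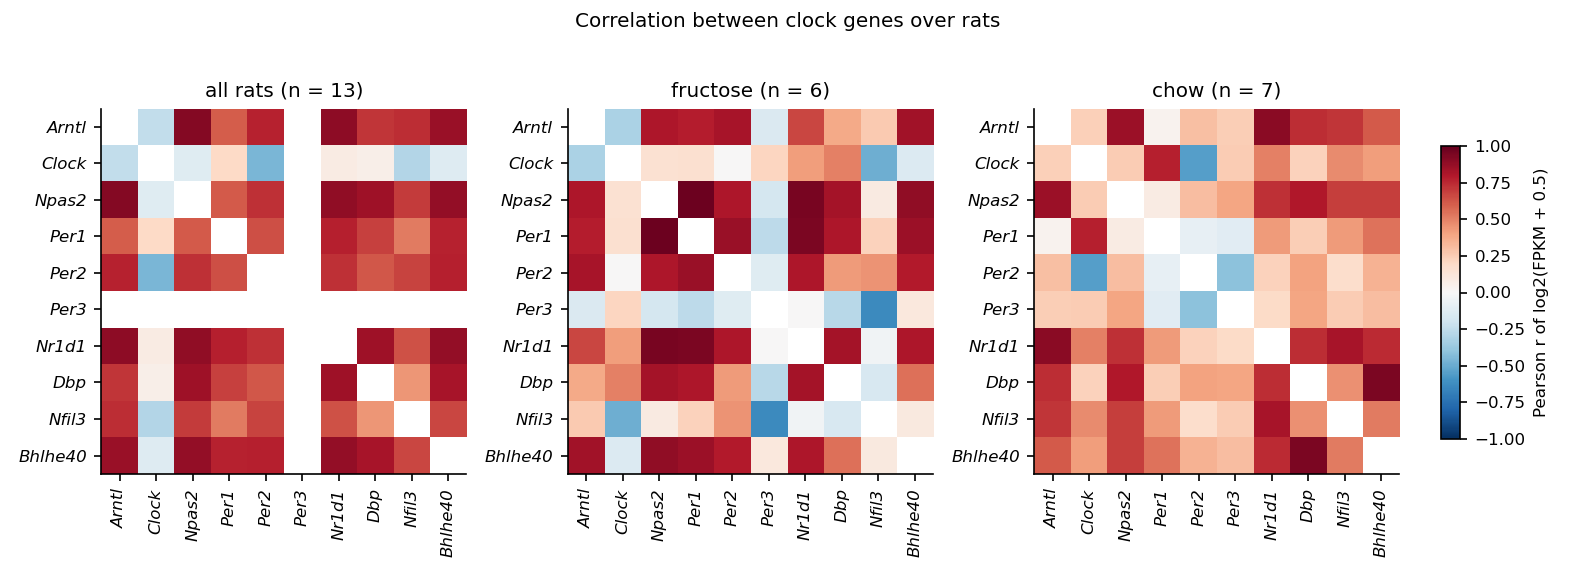
Pearson r of log2(FPKM + 0.5) between the clock genes over all 13 rats, the 6 fructose rats and the 7 chow rats, on a colour scale from -1 (blue) to 1 (red); the diagonal is blank, and so is Per3 in the first panel because the diets do not overlap in it. For Npas2 and Per1 r was 0.98 in the fructose rats and 0.08 in the chow rats.

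Across rats, the thalamus level ran with 8 of the 10 clock genes (Pearson r, permutation test, adjusted p under 0.05 over the 10). The share of all genes that ran with this level was not computed. The count is therefore not shown to be a trait of the clock genes. Fructose replicates 1, 3 and 5 had thalamus levels of 4.65, 4.72 and 5.07 and hypothalamus list levels of 2.89, 3.55 and 2.86. In fructose replicates 2, 4 and 6 these were 3.26, 3.79 and 3.89, and 4.52, 5.05 and 4.67. Chow replicates 1 and 4 had the highest hypothalamus levels of their diet (5.21 and 5.01), beside thalamus levels of 4.46 and 5.29. This relation was not tested, so the thalamus level is not read as thalamus alone. Npas2 followed the thalamus level in both diets, with r = 0.93 (permutation p = 1e-05, adjusted p = 5e-05) and rho = 0.98 (permutation p = 1e-05, adjusted p = 5e-05) over 13 rats. Without the 2 rats farthest from the median level (fructose replicates 2 and 4) r was 0.94. Within fructose rats it was 0.94 (n = 6, exact permutation p = 0.00556) and within chow rats 0.98 (n = 7, exact permutation p = 0.000595). Chow replicate 1, the chow rat with the lowest Npas2, also had the lowest thalamus level of its diet (4.46), and fructose replicate 5, with the highest Npas2 of its diet, the highest (5.07).

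Dbp gave r = 0.94 (permutation p = 2e-05, adjusted p = 6.67e-05) and rho = 0.80 (permutation p = 0.00157, adjusted p = 0.00314), with 0.96 in fructose rats (n = 6, exact permutation p = 0.0167) and 0.90 in chow rats (n = 7, exact permutation p = 0.0133), and 0.88 without the 2 farthest rats. Nr1d1 gave r = 0.92 (permutation p = 1e-05, adjusted p = 5e-05) and rho = 0.95 (permutation p = 1e-05, adjusted p = 5e-05), with 0.94 in fructose rats (n = 6, exact permutation p = 0.00139) and 0.78 in chow rats (n = 7, exact permutation p = 0.0419), and 0.83 without the 2 farthest rats. For Bhlhe40, Arntl, Per2 and Per1, which also passed, r was 0.86 (permutation p = 0.00014, adjusted p = 0.00035; rho = 0.91), 0.84 (permutation p = 0.00023, adjusted p = 0.00046; rho = 0.90), 0.75 (permutation p = 0.00339, adjusted p = 0.00487; rho = 0.75) and 0.75 (permutation p = 0.00341, adjusted p = 0.00487; rho = 0.60). The permutation p of rho ran from 2e-05 for Bhlhe40 to 0.0341 for Per1. Within diets, Bhlhe40 had r = 0.70 in fructose rats (n = 6, exact permutation p = 0.136) and 0.79 in chow rats (n = 7, exact permutation p = 0.0397), and Arntl 0.58 (n = 6, exact permutation p = 0.211) and 0.87 (n = 7, exact permutation p = 0.0177). Per2 had 0.66 in fructose rats (n = 6, exact permutation p = 0.189) and 0.35 in chow rats (n = 7, exact permutation p = 0.457), and Per1 0.93 (n = 6, exact permutation p = 0.00556) and 0.12 (n = 7, exact permutation p = 0.791). None of these 4 genes thus had an exact permutation p under 0.05 in both diets, although r was above 0 in each diet. With 6 and 7 rats, such a p does not show that a relation is absent. Without the 2 farthest rats the r of the 4 was 0.81, 0.84, 0.62 and 0.52, and for Per1 the permutation p was then above 0.05 (permutation p = 0.102, n = 11). Clock (r = -0.05, permutation p = 0.867) and Per3 were the 2 genes that did not pass, and Per3, given within diets, had -0.23 in fructose rats (n = 6, exact permutation p = 0.739) and 0.43 in chow rats (n = 7, exact permutation p = 0.325). Nfil3 passed over all rats (r = 0.60, permutation p = 0.0290, adjusted p = 0.0362; rho = 0.70, permutation p = 0.00937, adjusted p = 0.0134; r = 0.81 without the 2 farthest rats), but r was -0.04 in fructose rats (n = 6, exact permutation p = 0.935) and 0.66 in chow rats (n = 7, exact permutation p = 0.105).

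With the thalamus level as a covariate, a fit chosen after the data were seen, 0 of the 10 clock genes passed, and 0.228% of all genes did. The log2 fold change of Npas2 was then -0.13 ± 0.14 (SE), that of Arntl -0.16 ± 0.13 and that of Bhlhe40 -0.13 ± 0.10 (limma adjusted p = 0.909, 0.834 and 0.846). Nr1d1 stood at -0.02 ± 0.07, Dbp at 0.05 ± 0.05 and Per1 at 0.04 ± 0.11, and the sign of Dbp and Per1 was opposite to that without the covariate. Per3 at 0.29 ± 0.09 and Nfil3 at -0.35 ± 0.14 lay near their values without the covariate, 0.28 and -0.40, but did not pass (limma adjusted p = 0.328 and 0.544). Of the genes set beside the clock, Id2 stood at 0.28, Fos at -0.52, Cdkn1a at -0.19, Vipr2 at -0.14, Dusp1 at -0.08 and Rgs16 at -0.07 in this fit, none of them called. The diets also differ in the level itself, so diet and level cannot be told apart in full.

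**Figure D5:**
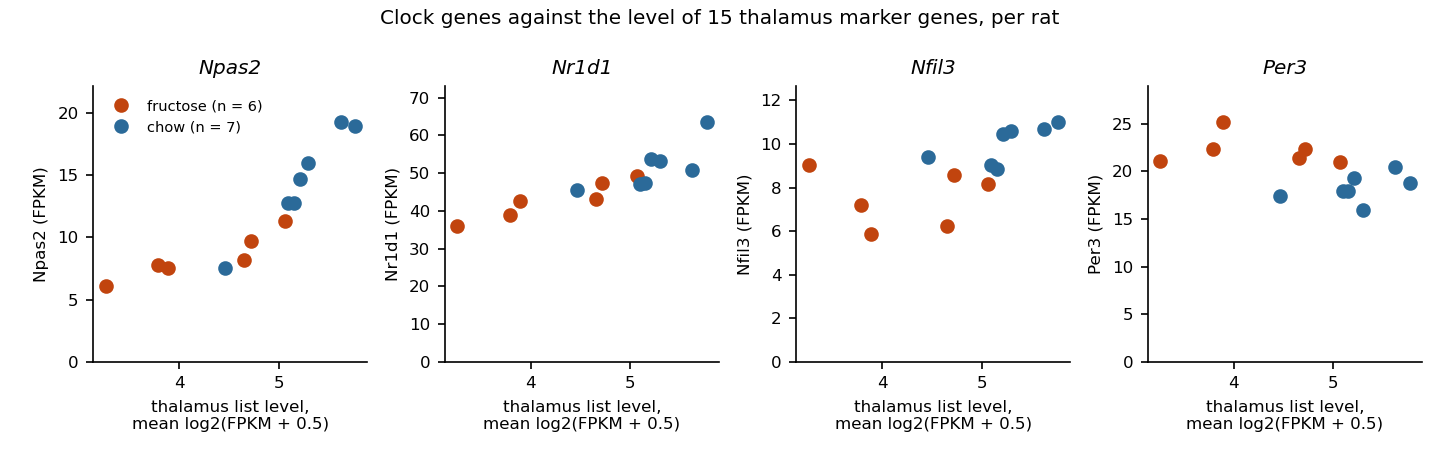
FPKM of Npas2, Nr1d1, Nfil3 and Per3 (vertical axes, from 0) against the level of 15 thalamus markers (horizontal axis, mean log2(FPKM + 0.5)), 1 point per rat. Npas2 and Nr1d1 climb with the level in both diets, and the range of levels that the diets share, 4.46 to 5.07, holds 3 fructose rats and 1 chow rat.

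The genes whose pattern over the 13 rats was most like that of 3 clock genes were looked up as a description. For Arntl they were Hsph1, a heat shock protein (r = 0.96), Ggt7 (r = 0.96) and Tuba4a, an alpha tubulin (r = 0.95). For Per2 they were Sdc1, a cell surface proteoglycan (r = 0.88), Cpne7 (r = 0.87) and Eif5a, a translation factor (r = 0.86). For Dbp they were the synaptic vesicle gene Sv2b (r = 0.95), the glutamate receptor gene Grm4 (r = 0.94) and the signalling ligand gene Wnt9b (r = 0.94). All 9 had a log2 fold change below 0, such as Hsph1 (163.8 FPKM on fructose and 214.0 FPKM on chow, -0.39) and Wnt9b (2.90 FPKM on fructose and 11.08 FPKM on chow, -1.985). They were picked for likeness to a clock gene over these same rats. Their difference between diets follows in part from that choice and is given with no test.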

How the data were processed

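RNA of whole hypothalamus from 13 rats was sequenced. The authors deposited FPKM in a column for each rat. The tools were STAR 2.3.0e, Cufflinks 2.1.1 and Cuffdiff, and the build rn5, per the submitters' processing notes. The sources used here give no settings, strand use or scaling of libraries. No counts are used, so the depth is unknown, and precision rests on the spread between rats. The labels do not say that rats came from separate cages, so p-values measure the spread between these rats. Total FPKM ran from 556902 to 608058 per rat, with 13156 to 13384 rows above 0, and no columns were identical. Replicates were numbered in accession order and pair nothing.

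The 10 genes, and the lists of pathway genes and of markers, were chosen with earlier results of these data known. Genes named were the 10 core genes, 9 fixed clock genes (2 of them not matched), called genes of the lists and the 3 most alike of Arntl, Per2 and Dbp, with markers beside them. Values were analysed as log2(FPKM + 0.5), which understates the change of low genes, for rows with a mean of at least 0.5 FPKM. The test was limma 3.58.1 in R 4.3.3 (intensity trend, two-sided), checked on simulated data. An exact permutation test per gene (two-sided) ran through all 1716 ways to divide the rats, and its smallest p is 0.000583. Correlations used numpy 2.4.6 and scipy 1.17.1 in Python 3.11.15. Alternatives were other pseudocounts (0.1, 1), filters, scalings, weights, robust moderation, left-out rats and, added after the data were seen, the thalamus level as a covariate.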

Additional observations from a re-analysis of the deposited data

Results flagged for a closer look

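In 22 groups of rats, the 10 clock genes and the limb difference in each diet, the highest or lowest rat was compared with the others; chance sets apart about 1 group in 20. Arntl in fructose replicate 5, at 13.2 FPKM, stood apart from the next fructose rat at 10.1 FPKM. Per3 in fructose replicate 6, at 25.2 FPKM, stood apart from the next at 22.3 FPKM.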

How the results depend on the processing

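Pseudocounts of 0.1 and 1, a mean of at least 2 FPKM, median-ratio scaling and robust empirical Bayes kept all 5 calls among the 10 clock genes. With no filter on low values 1 was called (Per3), 2 in the wider clock list and 308 genes in all. With quantile normalization 3 were called, and Arntl and Bhlhe40 were lost (limma adjusted p = 0.0518 and 0.0523). The exact permutation test gave 0 in the 10, the wider list and all genes, with 2223 genes at an unadjusted p under 0.05. With array weights 6 were called, Nr1d1 added (limma adjusted p = 0.0429), and 1019 genes in all. With the thalamus level as a covariate, 0 of the 10, 0 of the wider list and 27 genes were called, and the log2 fold change turned to 0.051 for Dbp and 0.041 for Per1. With 1 rat left out, the calls ranged from 0 to 5 in the 10 (0 without fructose replicate 4 or 6 or chow replicate 2 or 4), from 0 to 7 in the wider list and from 83 to 859 over all genes. The limb difference lay between -0.23 and -0.15 with 1 rat left out and at -0.26 without Nfil3 and Bhlhe40. Correlated pairs numbered 28 with either pseudocount, 0 within fructose rats, 2 within chow rats and 11 without the 2 farthest rats. No paired analysis was possible because the labels give no replicate numbers shared between the diets. Depth is unknown, so counting error could not be given.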
